A study of Mus musculus with 9 samples.

Results

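Genes that restrain bone morphogenetic protein (BMP) signaling and genes that BMP signaling induces were followed in mouse fracture callus, the repair tissue that bridges a broken bone. The set holds 10 genes of the 22054 in the deposited table, chosen by symbol: the antagonists Nog, Grem1, Chrd, Chrdl1 and Bmp3, and the targets Smad6, Smad7, Id1, Id2 and Id3. Each symbol had a single row in the table, and all 10 genes passed the filter on low counts in each comparison.

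The study fractured the left femur of male C57BL/6J mice, pinned the marrow cavity and took callus RNA on day 7 for sequencing of poly(A) RNA. The labels give bone as the tissue and 7 weeks as the age of all the mice. From the day after surgery each mouse received a 200 μl intraperitoneal injection every day for a week. H-151, an inhibitor of the innate immune adaptor STING, was given at 750 nmol to the H-151 group (n = 3). SR-717, a STING activator, was given at 30 mg/kg to the SR-717 group (n = 3), and PBS buffer to the control group (n = 3). The drug doses are in different units, and all groups carried the fracture, so no unfractured bone enters the comparisons. The labels call the libraries replicate biosamples without saying whether each came from a separate animal or from pooled tissue. The p-values therefore measure the spread between these samples. The RNA extraction text in the labels speaks of cell lines, whereas the source field names bone and the study's methods name callus.

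BMP ligands bind paired type I and type II serine/threonine kinase receptors, which phosphorylate SMAD1, SMAD5 and their close relative, and these enter the nucleus with SMAD4. Secreted antagonists such as noggin, chordin and gremlin bind the ligand outside the cell, while SMAD6 and SMAD7 are induced by the signal and feed back on it inside the cell. The ID genes are direct targets in many cell types, and their proteins hold bHLH transcription factors away from DNA. In callus, BMP signaling is known to drive the differentiation of periosteal progenitors into cartilage and bone.

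Promoter windows show the DNA at the start of the members whose levels moved most closely together, Smad6 and Id3, and of the member that varied most between libraries, Grem1. RefSeq windows on GRCm38.p6, each 300 bases long (250 before the start and 50 from it), were matched for 5 of the 10 members, namely Grem1, Chrd, Smad6, Id2 and Id3. Nog, Chrdl1, Bmp3, Smad7 and Id1 were not matched. The windows are written 5′ to 3′ on the strand of the gene, at chr9:64022010-64022309 (minus strand) for Smad6, chr4:136143572-136143871 (plus strand) for Id3 and chr2:113758599-113758898 (minus strand) for Grem1. The start is that of RefSeq, and the gene positions given further below, from GENCODE, place some starts elsewhere. By those positions the Id3 gene begins at chr4:136143497, and its window lies wholly within the gene, as does that of Id2. Capitals mark 3 motifs that SMAD proteins are known to bind, searched on both strands. The first is GGCGCC, a motif of BMP-responsive elements. The second is the SMAD-binding element CAGAC, whose reverse complement reads GTCTG on the printed strand. The third is the palindromic form GTCTAGAC.
Smad6: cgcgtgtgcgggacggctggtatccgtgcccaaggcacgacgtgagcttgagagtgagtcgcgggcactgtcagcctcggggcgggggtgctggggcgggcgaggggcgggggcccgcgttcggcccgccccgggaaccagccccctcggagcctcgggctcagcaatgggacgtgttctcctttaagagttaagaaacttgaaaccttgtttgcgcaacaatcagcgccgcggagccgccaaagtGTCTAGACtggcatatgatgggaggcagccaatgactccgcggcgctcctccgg
Id3: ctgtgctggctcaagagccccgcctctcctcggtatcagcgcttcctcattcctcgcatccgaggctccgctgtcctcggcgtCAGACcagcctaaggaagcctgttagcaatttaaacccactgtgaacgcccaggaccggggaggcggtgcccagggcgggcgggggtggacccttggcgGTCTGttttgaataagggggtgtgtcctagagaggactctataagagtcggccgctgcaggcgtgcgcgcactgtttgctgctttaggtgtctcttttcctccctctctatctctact
Grem1: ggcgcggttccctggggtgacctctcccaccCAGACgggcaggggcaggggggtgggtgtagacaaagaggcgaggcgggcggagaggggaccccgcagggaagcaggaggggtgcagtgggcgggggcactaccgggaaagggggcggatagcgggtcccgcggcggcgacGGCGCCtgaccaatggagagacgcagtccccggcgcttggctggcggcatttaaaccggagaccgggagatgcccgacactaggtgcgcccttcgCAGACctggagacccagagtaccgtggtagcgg
The Smad6 window held GTCTAGAC, starting at base 247 of the window and so spanning the annotated start. This palindrome holds no CAGAC or GTCTG, was searched for after the windows had been read, and occurs in 0.213% of the 32851 RefSeq windows of the same length. The Id3 window held CAGAC at base 84 and GTCTG at base 183, and 49.6% of all windows held this motif. The Grem1 window held GGCGCC at base 173, a motif of 11.9% of all windows, and CAGAC at bases 32 and 268. Of the windows not printed, Chrd held GGCGCC and GTCTG and Id2 held GGCGCC. A match describes the letters of the window and is not a measured binding site.

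Total expected counts per library ran from 16987398 to 23272480, and the members' own counts from 35 to 7821. Osteoblast markers (8 of 8 found) summed to between 24981 and 48180 CPM, the counts scaled to the size of each library, and chondrocyte markers (8 of 8 found) to between 257 and 14479 CPM, none of either list being at 0 in any library. SR-717 replicate 1 stood apart from the other libraries, at 100.6 on the first principal component of log2 CPM (46.6% of the variance), followed by PBS replicate 1 at 38.8 and the other 7 between −28.8 and −4.03. These libraries had the lowest chondrocyte sums, 257 and 1465 CPM against 4282 to 14479 CPM in the other 7. They also had the highest sums of 8 inflammatory cytokine genes, 2385 and 434 CPM against 18.7 to 85.5 CPM. Neutrophil markers (8 of 8 found) summed to 14200 CPM in SR-717 replicate 1 and to between 588 and 4696 CPM in the others. The part of these differences in the members' values was not tested. For Grem1, Bmp3, Chrdl1, Smad6, Smad7, Id2 and Id3, SR-717 against PBS is also given without SR-717 replicate 1, alone or together with PBS replicate 1. In whole callus RNA, fewer cells of a type and less RNA per cell cannot be told apart.

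The Id genes were the most abundant members. On the length-scaled TPM values of the authors, which compare levels between genes, the mean level over the 9 libraries was 388 ± 121 (SD) for Id3, 114 ± 21.8 for Id1 and 67.6 ± 14.0 for Id2. Smad6 had a mean level of 15.7 ± 4.23 TPM, and the other 6 members had means between 4.38 TPM (Chrd) and 7.66 TPM (Bmp3). Id3 ranked above 98.4% of genes in the table by mean TPM and Chrd above 51.0%. The ranges of Id3 and Id1 did not overlap, nor did those of Id2 and Smad6. Id1 exceeded Id2 in 8 of 9 libraries, the exception being SR-717 replicate 1, and Smad6 exceeded Bmp3 in 9 of 9. Below Bmp3 the ranges of all neighbouring members overlapped, so that Smad7, Chrdl1, Nog, Grem1 and Chrd could not be ordered beyond the spread between libraries.

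**Figure D1:**
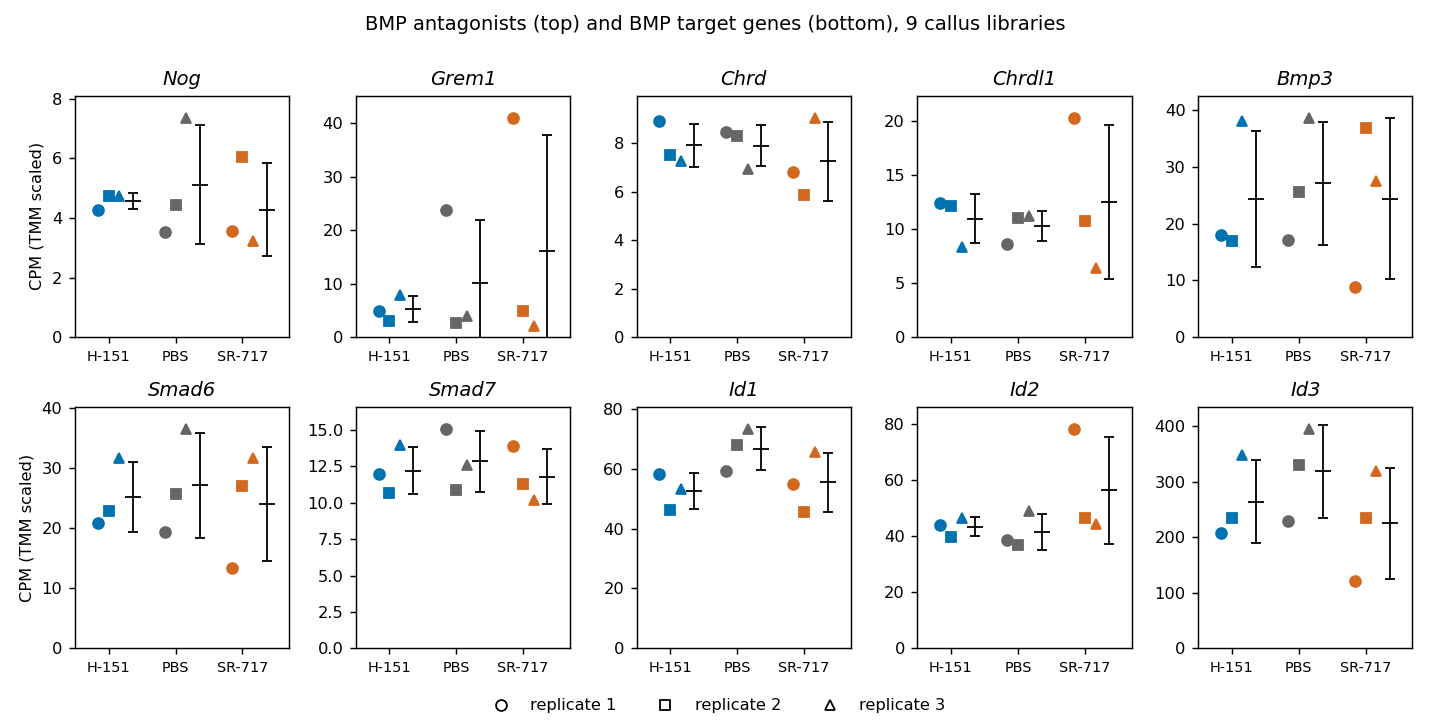
CPM of each member (vertical axes, linear, from 0, a panel per gene) in the H-151, PBS and SR-717 groups (horizontal axis), with each of the 3 libraries of a group as a point whose shape gives the replicate number, and the group mean as a dash with an SD error bar, cut at 0 for Grem1. Grem1 reaches 41.1 CPM in SR-717 replicate 1 and 23.7 CPM in PBS replicate 1 and lies at 7.89 CPM or below in the other 7 libraries.

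Among the secreted antagonists, Grem1 had the widest spread. Grem1 (chr2:113746164-113758646, minus strand, GRCm38) encodes gremlin, a cystine-knot protein that binds BMP2, BMP4 and BMP7. Its levels were 4.81, 3.11 and 7.89 CPM in H-151 replicates 1, 2 and 3, 23.7, 2.66 and 3.93 CPM in PBS, and 41.1, 4.98 and 2.04 CPM in SR-717, with CPM here and below scaled by TMM factors. SR-717 replicate 1 and PBS replicate 1 were far above the rest, and the 3 groups overlapped. The highest library was 20.1 times the lowest, and the coefficient of variation of 127% exceeded that of 98.4% of the 14294 genes tested over all libraries. Grem1 made up 47.5% of the summed TPM of the 5 antagonists in SR-717 replicate 1 and 36.3% in PBS replicate 1, against 4.09 to 12.8% in the other 7 libraries. The log2 fold change of SR-717 against PBS was 0.67 ± 1.28 (SE), and its sign followed 1 library at a time. It was −1.52 without SR-717 replicate 1, 2.28 without PBS replicate 1 and 0.12 without both. H-151 against PBS gave −0.94 ± 0.84, which became 0.69 without PBS replicate 1. SR-717 against H-151 gave 1.60 ± 1.08 (95% interval −1.01 to 4.20), which became −0.58 without SR-717 replicate 1.

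Bmp3 (chr5:98854415-98884396, plus strand) encodes a BMP family member that opposes osteogenic BMPs and is abundant in bone. Its levels were 18.0, 16.9 and 38.1 CPM in H-151, 17.2, 25.6 and 38.7 CPM in PBS and 8.88, 36.8 and 27.5 CPM in SR-717. SR-717 replicate 1 was the lowest library, and the groups overlapped throughout. The log2 fold changes were −0.15 ± 0.54 for SR-717 against PBS, −0.16 ± 0.41 for H-151 against PBS and −0.00 ± 0.56 for SR-717 against H-151. Without SR-717 replicate 1 the value for SR-717 against PBS was 0.25, and without SR-717 replicate 1 and PBS replicate 1 it was 0.02.

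Chrdl1 (chrX:143285674-143394262, minus strand) encodes chordin-like 1, a secreted BMP-binding protein. It was at 12.4, 12.1 and 8.34 CPM in H-151, at 8.68, 11.1 and 11.2 CPM in PBS and at 20.4, 10.8 and 6.42 CPM in SR-717. The SR-717 group held both the highest library, replicate 1, and the lowest, replicate 3, and so enclosed the other groups. Its log2 fold change against PBS was 0.28 ± 0.42 from the counts but −0.17 on log2(TPM + 1), and −0.35 without SR-717 replicate 1 and PBS replicate 1.

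Nog and Chrd, the antagonists for which this class is best known, varied less than Grem1, Bmp3 and Chrdl1. Nog (chr11:89300638-89302332, minus strand) encodes noggin, which covers the receptor-binding surfaces of BMP dimers. Its levels were 4.27, 4.73 and 4.72 CPM in H-151, 3.54, 4.44 and 7.36 CPM in PBS and 3.56, 6.05 and 3.21 CPM in SR-717. The H-151 libraries lay within the range of the PBS libraries, which held the highest value. The coefficient of variation of Nog, 28.4%, was above the median of 21.3% over all genes tested. The log2 fold changes were −0.25 ± 0.40 for SR-717 against PBS and −0.16 ± 0.31 for H-151 against PBS. Chrd (chr16:20733127-20742384, plus strand) encodes chordin, which sequesters BMPs until it is cleaved. It was at 8.93, 7.49 and 7.28 CPM in H-151, 8.45, 8.29 and 6.91 CPM in PBS and 6.82, 5.87 and 9.05 CPM in SR-717. The 3 groups overlapped, and its coefficient of variation of 14.0% was below the median of 21.3% over all genes tested. Chrd overlaps Thpo on the opposite strand, and since the use of strand in counting is not stated, its count is uncertain.

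Of the inhibitory SMADs, Smad6 varied and Smad7 was nearly level. Smad6 (chr9:63953076-64022059, minus strand) encodes the inhibitory SMAD that acts mainly on the BMP branch. Its levels were 20.8, 22.9 and 31.7 CPM in H-151, 19.3, 25.6 and 36.5 CPM in PBS and 13.4, 27.0 and 31.7 CPM in SR-717. In each group replicate 1 was the lowest library, SR-717 replicate 1 the lowest of all, and the groups overlapped. Smad7 (chr18:75367529-75395935, plus strand) encodes the inhibitory SMAD of both the TGF-β and the BMP branch. It was at 12.0, 10.7 and 14.0 CPM in H-151, 15.1, 10.9 and 12.6 CPM in PBS and 13.9, 11.3 and 10.2 CPM in SR-717. Its coefficient of variation, 13.8%, was the lowest of the 10 members, and its groups overlapped. The ratio of Smad6 to Smad7 in TPM was 1.12 in SR-717 replicate 1 and 1.51 in PBS replicate 1, and between 1.93 and 3.62 in the other 7 libraries. Against PBS, the log2 fold change of Smad6 was −0.18 ± 0.38 in SR-717 and −0.11 ± 0.28 in H-151, and that of Smad7 was −0.12 ± 0.22 and −0.07 ± 0.20. Without SR-717 replicate 1, SR-717 against PBS gave 0.12 for Smad6 and −0.26 for Smad7.

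Id1 was the member with the smallest p over the 3 comparisons when the replicate number was not a block. Id1 (chr2:152736251-152737410, plus strand) encodes an inhibitor of DNA binding and is among the earliest genes induced by BMP. Its levels were 58.2, 46.1 and 53.3 CPM in H-151, 59.0, 67.8 and 73.3 CPM in PBS and 55.0, 45.7 and 65.5 CPM in SR-717. All 3 H-151 libraries lay below all 3 PBS libraries, the nearest values being 58.2 and 59.0 CPM, and the SR-717 group overlapped both. The mean was 52.5 ± 6.07 CPM in H-151, 66.7 ± 7.18 CPM in PBS and 55.4 ± 9.90 CPM in SR-717. For H-151 against PBS the log2 fold change was −0.34 ± 0.15 (95% interval −0.69 to 0.01), with an unadjusted p of 0.0527 that ranked 102 of 14085 genes and a Benjamini-Hochberg adjusted p of 0.9999 in edgeR's quasi-likelihood test. Leaving out each library in turn gave −0.42 to −0.26, and without PBS replicate 1 the unadjusted edgeR p was 0.0319. In the other left-out fits no member, Id1 included, was under 0.05. The smallest edgeR p of any member was 0.187 without H-151 replicate 2 and 0.143 without PBS replicate 3. It was 0.102 without PBS replicate 2, 0.0970 without H-151 replicate 3 and 0.0518 without H-151 replicate 1. On CPM scaled by total count alone, and on TPM, the groups overlapped, with H-151 reaching 127 TPM and PBS starting at 120 TPM. For SR-717 against PBS the value was −0.27 ± 0.19 (95% interval −0.72 to 0.18), and for SR-717 against H-151 it was 0.07 ± 0.17.

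Id3 (chr4:136143497-136145755, plus strand), an inhibitor of DNA binding that is prominent in osteoblast progenitors and endothelium, was at 208, 235 and 348 CPM in H-151. It was at 229, 331 and 395 CPM in PBS and at 121, 235 and 319.9 CPM in SR-717. SR-717 replicate 1 was the lowest library and PBS replicate 3 the highest, and the groups overlapped. Replicate 1 was the lowest and replicate 3 the highest library of each group. Each SR-717 library and each H-151 library was below the PBS library with the same number, for Id3 as for Id1. Among all genes, 12.4% were lower in all 3 same-numbered pairs for SR-717 and 11.5% for H-151, both against the same PBS libraries. The log2 fold change was −0.50 ± 0.39 for SR-717 against PBS (95% interval −1.43 to 0.44) and −0.27 ± 0.27 for H-151 against PBS. The first value was −0.19 without SR-717 replicate 1, −0.84 without SR-717 replicate 3 and −0.37 without both SR-717 replicate 1 and PBS replicate 1. H-151 against PBS ran from −0.52 without H-151 replicate 3 to −0.086 without PBS replicate 3. With the replicate number as a block, SR-717 against PBS gave −0.57 at an unadjusted p of 0.0292 and an edgeR quasi-likelihood adjusted p of 0.999 (Benjamini-Hochberg).

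Id2 (chr12:25093799-25097140, minus strand), which is also used by lymphoid and myeloid cells, had the opposite sign to Id1 and Id3 against PBS. It was at 43.9, 39.6 and 46.4 CPM in H-151, 38.6, 36.9 and 48.8 CPM in PBS and 78.2, 46.4 and 44.2 CPM in SR-717. SR-717 replicate 1 was the highest library by a wide margin and the rest lay between 36.9 and 48.8 CPM, so that the groups overlapped. Id2 made up 28.7% of the summed TPM of the 3 Id genes in SR-717 replicate 1 and 8.10 to 13.6% in the other 8 libraries, while Id3 made up 44.0% there and 62.8 to 74.5% in the others. The log2 fold change was 0.44 ± 0.27 for SR-717 against PBS (95% interval −0.20 to 1.08), 0.06 ± 0.15 for H-151 against PBS and 0.37 ± 0.24 for SR-717 against H-151. Without SR-717 replicate 1 it was 0.13 for SR-717 against PBS and 0.057 for SR-717 against H-151.

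**Figure D2:**
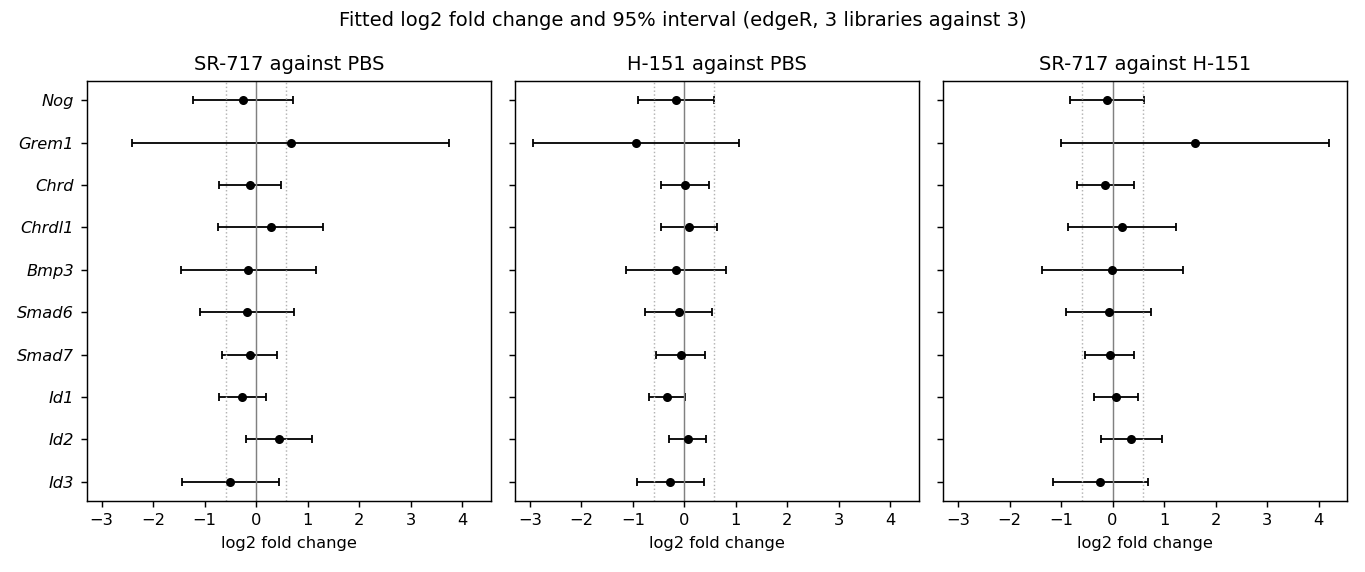
Log2 fold change of each member (horizontal axis) in SR-717 against PBS, H-151 against PBS and SR-717 against H-151, with points for the edgeR estimate, whiskers for its 95% interval and dotted lines at a 1.5-fold change either way. Every interval crosses 0, that of Id1 in H-151 against PBS ending at 0.01 and that of Grem1 in SR-717 against H-151 running from −1.01 to 4.20.

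In the comparison of the activator with control callus, none of the 10 members passed the study's thresholds (unadjusted p under 0.05 and at least a 1.5-fold change), which 73 of 14070 genes (0.519%) passed. None had an adjusted p under 0.05 by edgeR's quasi-likelihood test, the members' adjusted p being 0.9999 (Benjamini-Hochberg), and none had an unadjusted p under 0.05 by edgeR, DESeq2 or limma on TPM when no block was fitted. With the replicate block 1 member, Id3, did. Over all genes, in the edgeR fit without a block, 0 reached an adjusted p under 0.05 and 97 (0.689%) an unadjusted one. The share for the fit with the block is not given here. More genes passed the thresholds with the block than without it, so the 0.689% is no measure for the p of Id3 there. Of the antagonists 2 had values above 0 and 3 below, with a median log2 fold change of −0.12, and of the targets 1 lay above and 4 below, with a median of −0.18, beside a median of 0.01 over all genes. No member's groups were free of overlap, against 3.75% of all genes.

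For the inhibitor against control callus, 0 of 10 members passed the thresholds, beside 60 of 14085 genes (0.426%). The members' adjusted p by edgeR's quasi-likelihood test was 0.9999 (Benjamini-Hochberg), no member had an unadjusted p under 0.05 by edgeR, DESeq2 or limma on all 6 libraries, and 91 of all genes (0.646%) did by edgeR. Groups free of overlap were found for 1 member, Id1, beside 3.87% of all genes and 2.31% with the first group lower. The median was −0.16 for the antagonists and −0.11 for the targets, beside −0.02 over all genes. Both comparisons use the same 3 PBS libraries, so that like signs in them are not independent.

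For the activator against the inhibitor, 0 of 10 members passed, beside 107 of 14151 genes (0.756%), and 0 members had overlap-free groups, beside 5.18% of genes. Adjusted p-values by edgeR's quasi-likelihood test were 0.996 or above (Benjamini-Hochberg). No member and 146 of all genes (1.03%) had an unadjusted p under 0.05, and DESeq2 placed 1 gene, not a member, at an adjusted p under 0.05. A test for any difference among the 3 groups, an F test on all 9 libraries, gave the members unadjusted p-values from 0.153 (Id1) to 0.945 (Bmp3), with 133 of 14294 genes (0.93%) under 0.05. The intervals in the plot of fold changes show what these libraries could not resolve. For Smad7 in SR-717 against PBS the interval ran from 0.635-fold to 1.33-fold, and for Grem1 from 0.189-fold to 13.4-fold.

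**Figure D3:**
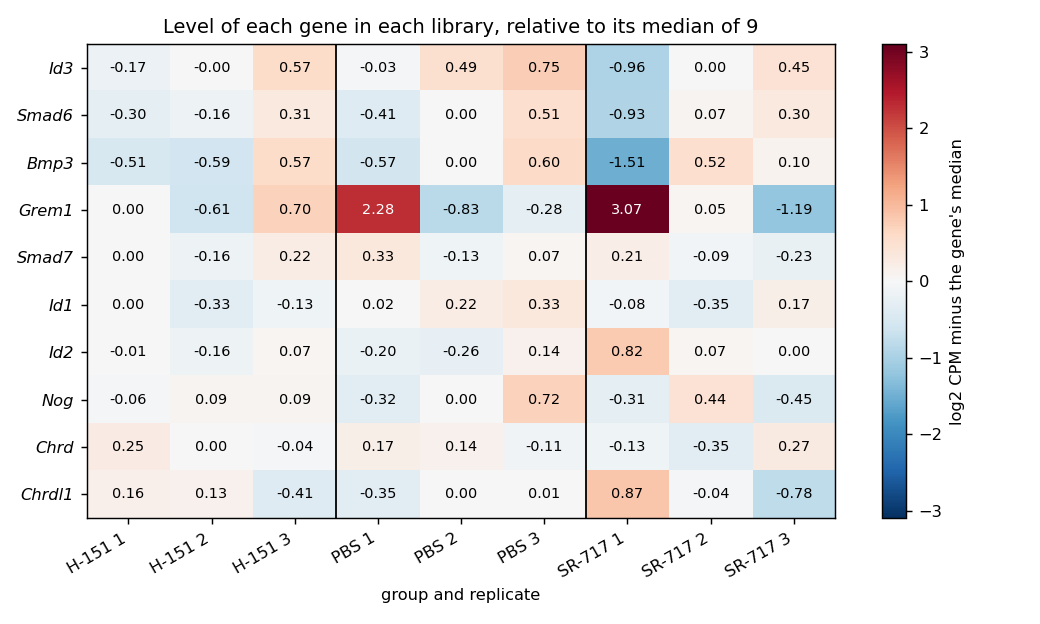
Difference of each member's log2 CPM from its median over the 9 libraries (colour scale), with genes as rows and libraries as columns, and the value printed in each cell. SR-717 replicate 1 holds 6 members beyond 0.5 from their median, Grem1, Chrdl1 and Id2 above it and Bmp3, Smad6 and Id3 below it.

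The libraries of a group differed widely in the members. In SR-717 replicate 1, 6 of the 10 members lay more than 0.5 log2 units from their median, where 40.2% of all genes did. In the other 8 libraries between 1 and 4 members did, where between 7.28 and 24.2% of all genes did. PBS replicate 3 had 4 such members, all above their median. The summed TPM of the 5 targets was lowest in SR-717 replicate 1, at 372, and highest in PBS replicate 3, at 786. That of the 5 antagonists was highest in SR-717 replicate 1, at 34.8, and lowest in SR-717 replicate 3, at 22.5, so that both extremes fell in 1 treatment group.

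Over the 9 libraries, 45 pairs of members were compared by correlation of log2 CPM, and 4 pairs had an adjusted p under 0.05 for Pearson's r in exact permutation tests. The share of pairs among all genes that would do so is not given here. Many genes varied together, the first principal component holding 46.6% of the variance. The permutations exchanged the 9 libraries freely, regardless of group and replicate number. The p-values therefore do not allow for an order of libraries that genes share through either. Smad6 and Id3 had r = 0.94 (exact permutation p = 0.00046, adjusted p = 0.0104) and rho = 0.93 (exact permutation p = 0.00075, adjusted p = 0.0169). Without the libraries farthest from the median of Smad6, SR-717 replicate 1 and PBS replicate 3, r was 0.80. It was 0.98 on deviations from the group means and 0.87 over the 7 libraries other than SR-717 replicate 1 and PBS replicate 1. Bmp3 and Smad6 had r = 0.94 (exact permutation p = 0.00031, adjusted p = 0.0104) and rho = 0.93 (exact permutation p = 0.00075, adjusted p = 0.0169), with r = 0.85 without the 2 farthest libraries and 0.84 over the 7. An antagonist and 2 targets thus had a similar order across the libraries, each lowest in SR-717 replicate 1.

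**Figure D4:**
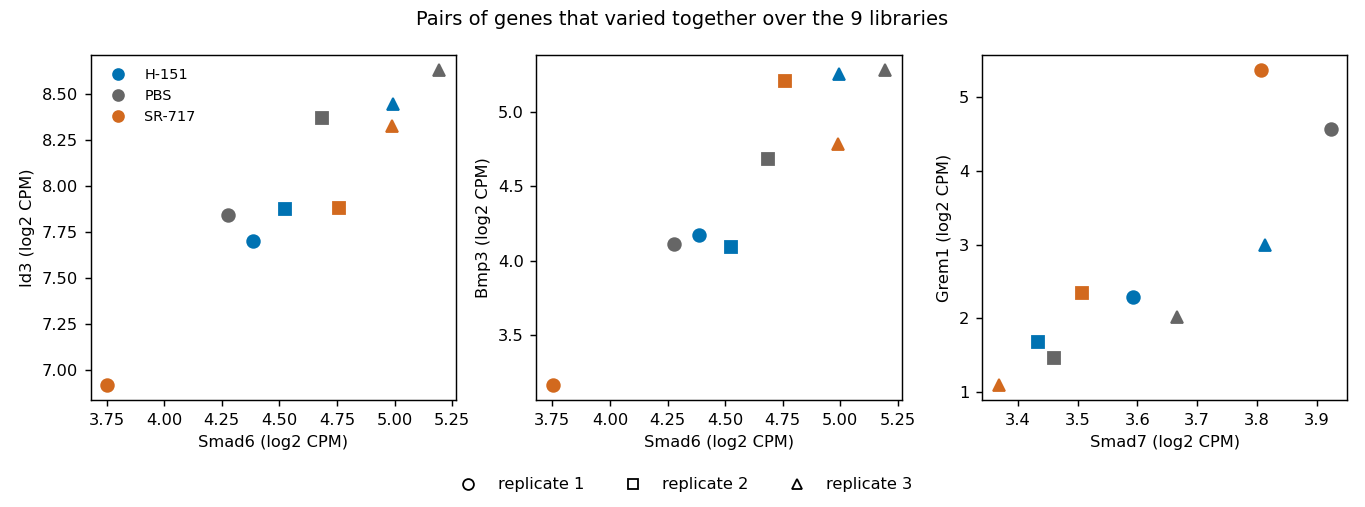
Log2 CPM of both genes of 3 pairs of members in the 9 libraries (points, coloured by treatment and shaped by replicate number), with 1 gene on each axis. Smad6 with Id3 and Smad6 with Bmp3 have r = 0.94 and SR-717 replicate 1 at the lower left, and Smad7 with Grem1 has r = 0.86.

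Bmp3 and Id3 had r = 0.87 (exact permutation p = 0.0032, adjusted p = 0.0359) and rho = 0.87 (exact permutation p = 0.0045, adjusted p = 0.0507), and r was 0.62 without the 2 farthest libraries. Grem1 and Smad7 had r = 0.86 (exact permutation p = 0.0013, adjusted p = 0.0194) and rho = 0.87 (exact permutation p = 0.0045, adjusted p = 0.0507), and r was 0.88 over the 7 libraries. These correlations used log2 CPM, and in TPM Grem1 and Smad7 did not keep this common order. H-151 replicate 3 had the lowest Smad7, at 5.42 TPM, with Grem1 at 3.162 TPM. PBS replicate 2 had Smad7 at 6.997 TPM with Grem1 at only 1.276 TPM, whereas PBS replicate 1 was high in both (8.198 and 10.896 TPM). Of the 14293 other genes, 0.784% correlated with Smad6 at least as well as Id3 did and 0.322% with Bmp3 at least as well as Smad6 did. With Bmp3, 2.19% correlated at least as well as Id3 did, and with Grem1, 4.92% at least as well as Smad7 did. The osteoblast marker sum, most of it Col1a1, was lowest in SR-717 replicate 1, at 24981 CPM, and about equally high in PBS replicate 3 and SR-717 replicate 3, at 48180 and 48179 CPM, and endothelial markers summed to between 1010 and 1194 CPM in all libraries. The part of tissue make-up in the similar order of Bmp3, Smad6 and Id3 was not tested.

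The genes most like each member were taken as the 3 with the highest Pearson r of log2 CPM over the 9 libraries among 14294 genes, as a description. They were Insc, Col13a1 and Meis3 for Smad6 (r = 0.99 to 1.00), Cacnb3, Rap1gap and Bcar1 for Id3 (0.98 each) and Pgbd1, Mamdc2 and Tcf7 for Bmp3 (0.98 each). For Grem1 they were Skil, C1qtnf7 and Pcf11 (0.99 each), of which Skil encodes SnoN, a corepressor that binds SMADs. Dusp6, Prpsap2 and Ikbkg led for Id2 (0.97 to 0.98), and Tmem106b, Pan3 and Tnrc6a for Smad7 (0.97 to 0.99). The best matches of Nog, Chrd, Chrdl1 and Id1 had r between 0.91 and 0.96, with Ccdc170, 1700056E22Rik, Crlf3 and Pus7l in first place.

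**Figure D5:**
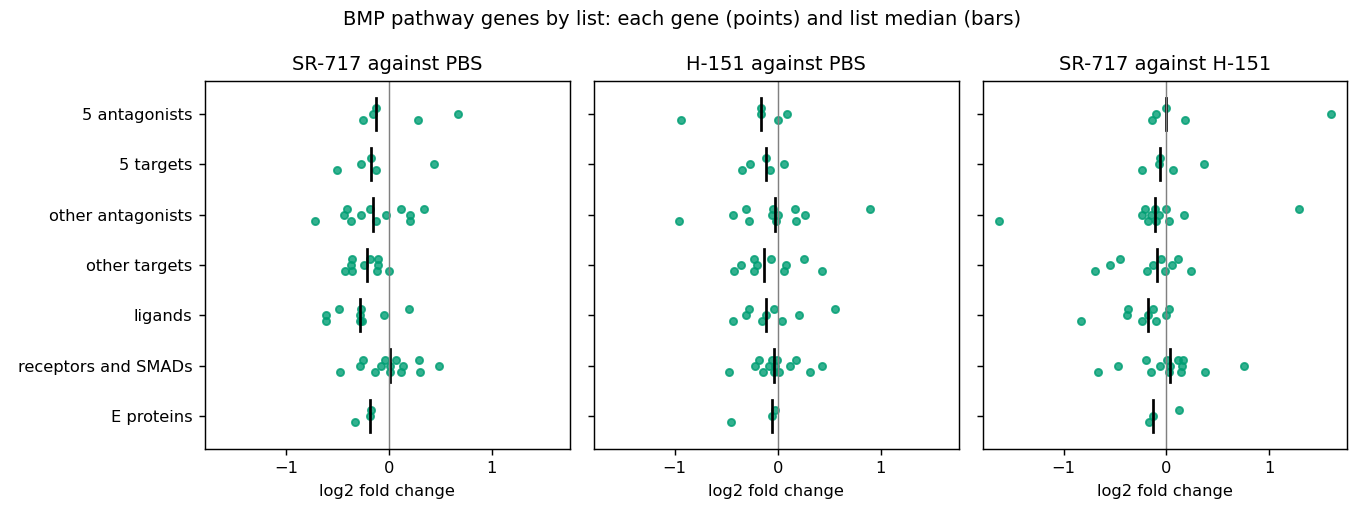
Log2 fold change (horizontal axis) of each tested gene of the member lists, the other BMP lists and the E proteins, which are the bHLH partners of the ID proteins, in the 3 comparisons, with 1 point per gene and the list median as a short vertical bar. In SR-717 against PBS the 10 other BMP targets lie below 0 with a median of −0.21 and the 9 ligands have a median of −0.28, and no point passed the thresholds. Without SR-717 replicate 1, 3 of the 10 targets lie below 0, with a median of 0.07. Without both SR-717 replicate 1 and PBS replicate 1, 7 of the 10 do, with a median of −0.14.

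The rest of the pathway was read from lists of other antagonists, other targets, ligands, receptors with SMADs, and the bHLH partners of the ID proteins. Of these 56 genes 48 were tested, and none passed the thresholds or an adjusted p under 0.05 (edgeR quasi-likelihood, Benjamini-Hochberg) in any of the 3 comparisons. For SR-717 against PBS, 4 of 12 other antagonists, 0 of 10 other targets, 1 of 9 ligands, 8 of 14 receptors and SMADs and 0 of 3 bHLH partners had a log2 fold change above 0. For H-151 against PBS the counts were 5, 4, 3, 5 and 0. Over all genes 47.8% lay below 0 for SR-717 against PBS and 55.8% for H-151 against PBS. The signs of the other targets in SR-717 against PBS depended on which libraries were kept. Without SR-717 replicate 1, 7 of 10 lay above 0, with a median of 0.07 where the median with that library was −0.21. Without PBS replicate 1 alone, 1 of 11 tested lay above 0, with a median of −0.40. Without both SR-717 replicate 1 and PBS replicate 1, an alternative added after seeing the data, 3 of 10 other targets, 2 of 9 ligands and 6 of 12 other antagonists lay above 0. For H-151 against PBS, leaving out PBS replicate 1 left 8 of 12 other antagonists and 1 of 10 other targets above 0. With all libraries the list medians ran from −0.28 (ligands) to 0.01 (receptors and SMADs) for SR-717 and from −0.13 (other targets) to −0.03 for H-151.

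Among genes listed with the ligands Bmp1 had the highest level, with a mean of 265 TPM. It encodes an astacin-family metalloprotease that cleaves chordin and procollagens and is not itself a ligand. Its levels were 518, 459 and 568 CPM in H-151, 632, 604 and 678 CPM in PBS and 512, 494 and 574 CPM in SR-717. Every PBS library was above every drug library, with log2 fold changes of −0.31 ± 0.15 for H-151 and −0.28 ± 0.16 for SR-717 against the same PBS libraries and unadjusted p-values of 0.0876 and 0.132 (edgeR, adjusted p 0.9999 by Benjamini-Hochberg). Bmp2, the ligand with an established need in fracture repair and named here after its values were seen, was at 8.04, 6.61 and 7.34 CPM in H-151, 9.37, 8.67 and 8.71 CPM in PBS and 7.28, 7.56 and 7.18 CPM in SR-717. On CPM scaled by TMM factors, Bmp2 too was higher in all PBS libraries than in all drug libraries. Its log2 fold changes were −0.28 ± 0.18 for H-151 and −0.28 ± 0.19 for SR-717, with unadjusted p-values of 0.165 and 0.182 (edgeR, adjusted p 0.9999 by Benjamini-Hochberg). On TPM the H-151 and PBS groups overlapped for Bmp2, with H-151 replicate 1 at 4.645 TPM and PBS replicate 3 at 4.364 TPM. The SR-717 libraries stayed below PBS, the highest being at 3.773 TPM. Among all genes, groups were free of overlap for 3.87% in H-151 against PBS and 3.75% in SR-717 against PBS, and 0.572% of 13974 genes had all PBS libraries above all 6 drug libraries. Bmp6 had the highest mean among the ligands proper, at 7.16 TPM. Eng, a co-receptor of endothelium, led the receptor list at 125 TPM.

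Dlx5, a BMP-induced homeobox gene of osteoblasts that was also named after its values were seen, was at 27.8, 23.1 and 39.3 CPM in H-151, 17.8, 34.2 and 54.0 CPM in PBS and 9.14, 38.3 and 35.3 CPM in SR-717. It was lowest in SR-717 replicate 1 and PBS replicate 1, the libraries in which Grem1 was highest, and its groups overlapped. The same libraries stood apart in many genes, with the lowest chondrocyte and the highest cytokine sums. A relation between Dlx5 and Grem1 was not tested.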

How the data were processed

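Callus mRNA of 9 libraries (3 per group) was sequenced for the study by a contract laboratory. The deposited table holds unnormalized expected counts for each gene beside the TPM of the authors, scaled for gene length and library. The build is mm10 per the submitters' processing notes, and the aligner, the counting program and the use of strand in counting are not given in the sources used here. Of the expected counts, 8.91% were not whole; they were rounded, the only change to a design that assumed counts. Samples were grouped by their labels. The members, gene lists and tests were chosen with earlier results of these data known.

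Tests used edgeR 4.0.16 in R 4.3.3 (filterByExpr with a count of 10 and a total of 15, TMM, glmQLFit, glmQLFTest, two-sided) on the 6 libraries compared, without covariates, and Benjamini-Hochberg adjustment over all genes tested. The fit was tested on simulated data. Standard errors were derived from the F statistic. Levels are CPM scaled by TMM factors of all 9 libraries, and log2 CPM used a prior count of 2. Alternatives used DESeq2 1.42.0, limma 3.58.1 on log2(TPM + 1) or log2(TPM + 0.1) for genes with a mean TPM of at least 0.5, other filters, all libraries in 1 fit, a replicate block and left-out libraries. Correlations were tested by exact permutation of pairings over all 9 libraries, regardless of group and replicate number. With 3 libraries against 3, no permutation test of groups was used.

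The labels number replicates 1 to 3 in each group. Deviations of same-numbered libraries correlated at 0.65, 0.34 and 0.14 for SR-717 and PBS and at 0.30, 0.49 and 0.50 for H-151 and PBS, all over 0.1. The numbers were therefore taken as a possible pairing of these groups, as a hint from the data. The main tests did not use the numbers, and the replicate block was run as an alternative. For SR-717 and H-151 the values were 0.34, 0.06 and 0.08, and the numbers were not taken to pair them. A true pairing of both drug groups with PBS would also pair these groups, so the values do not settle whether the numbers pair libraries.

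Named genes are the 10 members, other pathway genes past the thresholds (none), the ligand and receptor of highest TPM, the 3 genes most like each member, and others said to be named after their values were seen. Positions come from GENCODE M21 on GRCm38, and promoters from RefSeq on GRCm38.p6.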

Additional observations from a re-analysis of the deposited data

How the results depend on the processing

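No member passed the thresholds or an adjusted p under 0.05 under any alternative, and the smallest adjusted p of a member was 0.694. Of 430 alternative values of the members' log2 fold changes, 378 had the sign of the reported one and 52 the opposite, 39 of them with 1 library left out. In 7 of 30 member comparisons the sign held throughout, namely Id1, Id2 and Id3 for SR-717 against PBS, Id1 and Id3 for H-151 against PBS, and Chrd and Id2 for SR-717 against H-151. The cause of the other sign changes was not tested. In the test for any difference among the 3 groups, 0 genes had an adjusted p under 0.05 under each alternative run, and the smallest unadjusted p of a member was 0.0471 for Id3 with the replicate block. Without the block this F test gave Id3 an unadjusted p of 0.431. The share of all genes under 0.05 with the block is not given here. The members' counts ran from 35 to 7821 in a library, and the spread of Grem1, from 35 to 795 counts, far exceeds counting error.

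Genes past the thresholds numbered 73, 60 and 107 for SR-717 against PBS, H-151 against PBS and SR-717 against H-151. With the replicate block they numbered 443, 262 and 143, with no member among them, and the block changed no member's call at the thresholds. It did bring Id3 in SR-717 against PBS to an unadjusted edgeR p of 0.0292, at less than a 1.5-fold change. Without a filter on low counts they numbered 194, 127 and 223, and with a mean count of at least 50 they numbered 37, 28 and 61, from more and from fewer genes tested. The DESeq2 Wald test gave 138 for SR-717 against PBS and 209 for SR-717 against H-151, the latter with 1 gene at an adjusted p under 0.05 where edgeR had 0. All 9 libraries in 1 fit gave 176 and 171 for these comparisons, and log2(TPM + 0.1) gave 169 for SR-717 against PBS and 101 for H-151 against PBS. With 1 library left out they ran from 95 to 319, from 43 to 698 and from 64 to 661. For SR-717 against PBS the count was 118 without PBS replicate 1, 259 without PBS replicate 2 and 319 without SR-717 replicate 3. For H-151 against PBS it was 99 without H-151 replicate 3, and 115, 698 and 153 without PBS replicates 1, 2 and 3. For SR-717 against H-151 it was 64 without H-151 replicate 2, and 384 and 661 without SR-717 replicates 2 and 3. Without both SR-717 replicate 1 and PBS replicate 1, an alternative chosen after seeing the data, SR-717 against PBS gave 118, and the log2 fold change was −0.35 for Chrdl1 and 0.02 for Bmp3.

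On log2(TPM + 1) and log2(TPM + 0.1), the log2 fold change turned to −0.17 and −0.22 for Chrdl1 in SR-717 against PBS and to −0.015 and −0.020 for Chrd in H-151 against PBS. In SR-717 against H-151 it turned to −0.20 and −0.24 for Chrdl1, to 0.030 and 0.035 for Smad7 and to −0.013 under both for Id1. Bmp3 in SR-717 against H-151 turned to 0.0091 with DESeq2 size factors, 0.0085 with the Wald test and 0.0048 with all 9 libraries.

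With each library left out in turn, log2 fold changes for SR-717 against PBS ran from −0.59 to 0.10 for Nog, −1.52 to 2.28 for Grem1, −0.32 to 0.0076 for Chrd, −0.25 to 0.59 for Chrdl1, −0.58 to 0.25 for Bmp3, −0.43 to 0.12 for Smad6, −0.26 to 0.0059 for Smad7, 0.13 to 0.58 for Id2 and −0.84 to −0.19 for Id3. For H-151 against PBS they ran from −0.35 to 0.20 for Nog, −1.39 to 0.69 for Grem1, −0.091 to 0.065 for Chrd, −0.010 to 0.25 for Chrdl1, −0.64 to 0.18 for Bmp3, −0.31 to 0.16 for Smad6, −0.18 to 0.066 for Smad7 and −0.0012 to 0.20 for Id2. For SR-717 against H-151 they ran from −0.44 to 0.067 for Nog, −0.58 to 2.12 for Grem1, −0.35 to 0.50 for Chrdl1, −0.43 to 0.47 for Bmp3, −0.32 to 0.21 for Smad6, −0.19 to 0.044 for Smad7, −0.070 to 0.19 for Id1 and −0.57 to 0.065 for Id3.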
